A study of Arabidopsis thaliana with 39 samples.

Results

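The CaMV 35S promoter of the SALK vector pROK2 lies in a stretch of 1568 nt between the 2 copies of the nopaline synthase terminator (NOSt), at 7039 to 8606 bp of the plasmid. Small RNA reads of SALK_059379 leaves were taken as members when their midpoint fell in that stretch, here called the 35S interval, and when they matched the plasmid at every base. There were 4353 such reads among 21957 exact reads and 25606 reads of the library on pROK2. They were 19.8% of the exact reads of the plasmid (95% interval 19.3 to 20.4) and 34.9% of those between the border repeats (34.0 to 35.7), and the interval makes up 36.3% of the length between the borders. SALK_059379 is an Arabidopsis thaliana line with insertions of the pROK2 T-DNA, which carries the kanamycin resistance gene nptII behind the nopaline synthase promoter (NOSp) and an empty cloning site behind the 35S promoter. The RNA came from whole rosette leaves of pooled segregating plants, with 1 small RNA library for the line. SAIL_232, a line with the T-DNA of pCSA110, was used only for a stretch that both plasmids hold. With 1 library there was no test between samples, and the 95% intervals below cover counting error only, because copies made by PCR cannot be told from independent molecules.

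Plants cut double-stranded RNA into small interfering RNAs (siRNAs) with Dicer-like enzymes. DCL4 and DCL2 make siRNAs of 21 nt and 22 nt, which act mainly on transcripts, and DCL3 makes those of 24 nt. The 24 nt class guides RNA-directed DNA methylation (RdDM), in which Pol IV and RDR2 supply the double-stranded RNA and AGO4 prefers guides that begin with A. The 35S promoter of Cauliflower mosaic virus is active in most plant tissues, and it is a known target of homology-dependent transcriptional silencing between transgenes that share it.

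The promoter was placed on the plasmid by its motifs. The interval held 1 match to TATATAA over both strands, at 7105 to 7111 bp on the minus strand. Of its 7 matches to TGACG, 2 lay close upstream of this box on the same strand, from 7146 and from 7158 bp. A pair of TGACG motifs forms the as-1 element of the 35S promoter, to which TGA factors bind. There were 3 matches to TATATAA on the whole plasmid, in 2.34% of its 128 windows of 100 nt, and 4.69% of these windows held 2 or more matches to TGACG. The base 31 nt after the first base of the box, at 7080 bp, was taken as the start reference. The promoter part ran from there over 849 nt to the HindIII site (AAGCTT) at 7929 bp, and its last bases hold PstI and SphI sites of the polylinker. Transcription from it would run on the minus strand, towards the first NOSt.

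The other 719 nt are vector sequence of 3 kinds. On the downstream side of the start reference lay 41 nt of cloning site with BamHI, XbaI, SacI, KpnI and SmaI sites (7039 to 7079 bp). Beyond HindIII lay 236 nt (7929 to 8164 bp) with the start of the lacZ alpha peptide, and 234 of these were also in pCSA110. The last 442 nt (8165 to 8606 bp) held the glycine-rich repeat of the gene III coat protein of phage M13. They are called the cloning site side, the lac stretch and the M13 stretch below. This division of the vector sequence was made after the reads had been seen.

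The interval was covered along its whole length by reads of 21, 22 and 24 nt, 1568 of 1568 bases. The plus strand reads covered 97.1% of the bases and the minus strand reads 98.9%. The density was 2776 exact reads per kb (2694 to 2860). No member matched pROK2 at more than 1 place. In the nuclear and organelle genomes of TAIR10.1 an exact match was found for 3 of 4353 members, and for 0 of the 3719 members of 21, 22 and 24 nt, which allows a share of up to 0.0991%. The authors had already remapped the reads to TAIR10 to remove off-target reads. These counts therefore describe what was left after that step and do not measure how specific the reads are.

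The 24 nt class was the most frequent length. It held 1872 reads (1788 to 1959), against 974 of 22 nt (914 to 1037) and 873 of 21 nt (816 to 933). The 23 nt reads numbered 302, the reads of 20 nt or less 176, and those of 25 nt or more were few, 105 of 25 to 29 nt and 51 of 30 nt or more. Among the lengths from 21 to 24 nt the 24 nt class made up 46.6% (45.0 to 48.1). Reads of 21 and 22 nt together reached 1847, close to the 24 nt class.

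The 24 nt class was also the most repetitive. Its 1872 reads had 412 distinct combinations of start, end and strand, so each was seen 4.54 times on average. For 21 nt and 22 nt these averages were 2.65 and 2.58. The 10 most frequent 24 nt reads made up 35.8% of the class, and 189 of the 412 were seen once. Counted once each, the 24 nt reads fell to 32.1% of the distinct reads of 21 to 24 nt (29.6 to 34.7), and the distinct reads numbered 377 for 22 nt and 330 for 21 nt. Hence the 24 nt class led by far in copies and by less in variety.

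The reads were unevenly spread. Among 16 windows, counted from the first base of the interval, the reads of 21, 22 and 24 nt ranged from 52 to 597. The densest window, 459 to 558 nt upstream of the start reference, held 597 reads (550 to 647), of which 352 were of 24 nt. The second, with 419 reads, spanned the cloning site side and the start reference, and the third, 659 to 758 nt upstream, held 403. All of these windows touched the promoter part. The sparsest were the last window, beside the second NOSt, with 52 reads in 68 nt, the window over the HindIII junction, with 102, and a window of the M13 stretch, 1159 to 1258 nt upstream, with 109. Identical reads counted once left the densest window in place, with 126 distinct reads, and windows shifted by 50 nt gave one that began at 509 nt upstream, with 519 reads. The promoter itself was thus unevenly covered, and the window over its as-1 element (59 to 158 nt upstream) held 153 reads.

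**Figure D1:**
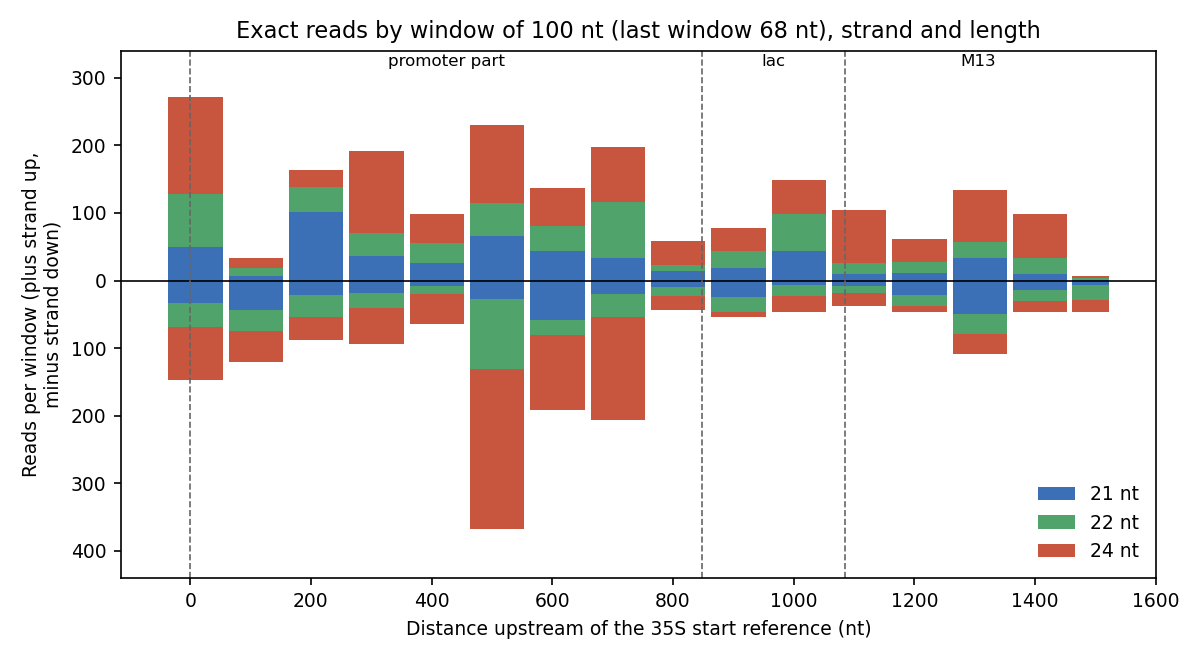
Exact reads of 21, 22 and 24 nt in each window of the 35S interval (x axis: distance upstream of the 35S start reference in nt; y axis: reads, plus strand above and minus strand below the line; dashed lines: start reference, HindIII end of the promoter part, end of the lac stretch). The tallest minus strand bar is the densest window with 597 reads on both strands, and the last window on the right holds 52.

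The promoter part was also divided by distance from the start reference into 3 stretches. The first 100 nt, with the TATA box and the as-1 element, held 138 exact reads of all lengths (116 to 163), or 1380 per kb. The next 300 nt, where the upstream enhancer sequences of the promoter lie, held 912 reads, or 3040 per kb, and the sequence beyond 400 nt held 1690 reads in 449 nt, or 3764 per kb. The rise over these stretches was not seen window by window, since the window 359 to 458 nt upstream held 163 reads and that over the HindIII end 102. The shares of 24 nt among 21 to 24 nt reads were 31.3% (23.5 to 40.0), 42.2% (38.8 to 45.6) and 52.0% (49.5 to 54.5). With identical reads counted once the shares were 28.8%, 35.5% and 31.3%, and their intervals overlapped. These 3 limits were chosen after the reads had been seen.

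The share of 24 nt also varied between single windows. It ran from 22.5% (17.6 to 28.1) in the window 159 to 258 nt upstream to 59.8% (51.8 to 67.3) in the window 1059 to 1158 nt upstream, across the lac and M13 stretches. In the first of these a single 21 nt read with 88 copies made up 35.1% of the reads of 21, 22 and 24 nt. Over the 15 windows of full length the counts of 24 nt and 22 nt reads had r = 0.88 (Spearman rho = 0.63). Those of 24 nt and 21 nt reads had r = 0.43 (rho = 0.47), and those of 21 nt and 22 nt reads r = 0.57 (rho = 0.82). The G+C content and the reads of all these lengths had r = -0.36 (rho = -0.31). The windows share 1 library. Each read was counted in 1 window by its midpoint, though reads near an edge reach into the next window. These values therefore describe the interval and carry no test.

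The promoter part held 2740 exact reads, 3227 per kb, and the other vector sequence 1613 reads, 2243 per kb. The density was 1.44 times higher on the promoter part (1.35 to 1.53), and the ratio was 1.54 for 24 nt (1.40 to 1.69), 1.47 for 21 nt (1.28 to 1.69) and 1.35 for 22 nt (1.18 to 1.54). The other vector sequence was itself uneven. Its 41 nt of cloning site side held 389 reads, 9488 per kb, whereas the lac stretch held 428 reads, 1814 per kb, and the M13 stretch 796 reads, 1801 per kb. Against these stretches the promoter part was denser by 1.78 (1.61 to 1.98) and 1.79 times (1.66 to 1.94). With identical reads counted once the ratio of the promoter part to the other vector sequence was 1.16 (1.04 to 1.28). A promoter part of only the 400 nt next to the start reference gave 0.928 (0.865 to 0.995), and everything upstream of the start reference against the cloning site side alone gave 0.274 (0.246 to 0.304). The direction thus rested on where the promoter part ended and on which vector stretches it was set against.

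The 24 nt share of the promoter part against the other vector sequence depended on how the parts were delimited. It was 47.7% on the promoter part (45.7 to 49.7) and 44.6% on the other vector sequence, a difference of 3.11 percentage points whose interval (-0.0854 to 6.28) includes 0. Reads wholly inside their part gave 7.76 points (4.36 to 11.1), leaving out the most frequent read of each length gave 3.71 points (0.442 to 6.96), and a promoter part of 400 nt turned the sign, with -7.73 points (-11.3 to -4.13). Inside the vector sequence the lac stretch stood lower. It held 124 reads of 24 nt and 126 of 22 nt, a 24 nt share of 32.1% (27.5 to 37.0) and 15.6 points (10.4 to 20.5) below the promoter part. The M13 stretch had 46.4% (42.7 to 50.0) and the cloning site side 54.3% (49.0 to 59.5). With identical reads counted once the promoter part and the lac stretch had 32.4% and 28.5%, a difference of 3.88 points with an interval that includes 0 (-4.14 to 11.1).

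**Figure D2:**
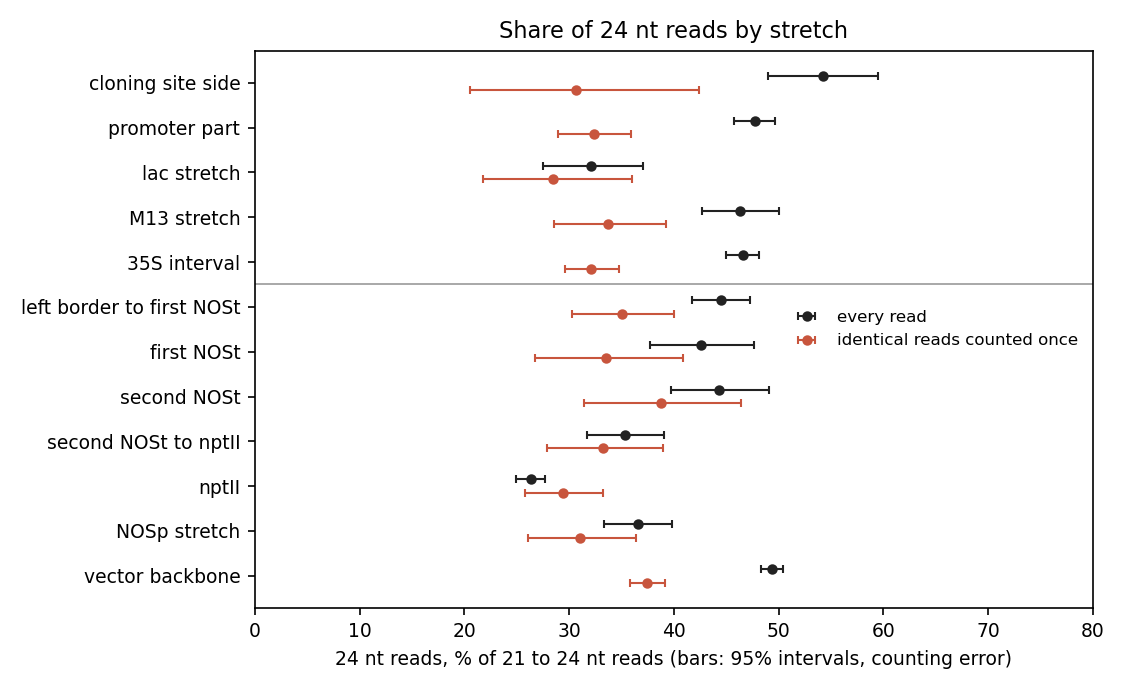
Share of 24 nt among 21 to 24 nt reads in the parts of the 35S interval (above the grey line) and in the other elements of pROK2, for every read (black) and with identical reads counted once (red), with 95% Clopper-Pearson intervals on the x axis in percent. Every read gave 46.6% for the interval and 26.3% for nptII, and the distinct reads of both lay close to 30%.

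Both strands gave reads in every size class. Of 24 nt reads 977 lay on the plus strand and 895 on the minus strand, 52.2% plus (49.9 to 54.5). The plus strand shares were 57.3% for 21 nt (500 and 373 reads) and 54.8% for 22 nt (534 and 440). Of the 21, 22 and 24 nt reads together 54.1% were plus (52.5 to 55.7), and of the distinct ones 52.1% (49.1 to 55.1). For 24 nt, with every read counted, near balance over the whole interval hid opposite leanings of its parts.

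A 35S transcript would be of the minus strand and would run from the start reference away from the promoter part. On the promoter part the 24 nt reads leaned to the minus strand, with 506 plus and 701 minus reads (41.9% plus, 39.1 to 44.8). On the other vector sequence they leaned to the plus strand, with 471 plus and 194 minus reads (70.8% plus, 67.2 to 74.3), a difference of -28.9 points (-33.2 to -24.4). Of the stretches by distance, only that beyond 400 nt from the start reference leaned to the minus strand as a whole, with 36.5% plus (33.2 to 39.9). The first 100 nt had 51.2% (35.1 to 67.1) and the next 300 nt 53.4% (48.0 to 58.7). Nearer than 400 nt, single windows leaned both ways. The window 59 to 158 nt upstream held 15 plus and 45 minus reads of 24 nt, and that 259 to 358 nt upstream 120 and 53. A promoter part of 400 nt left a difference of 1.25 points (-4.30 to 6.76). The minus strand led for 24 nt in 6 of the 7 windows wholly in the promoter part and in 1 of the 7 wholly outside it, the last one, which holds 19 reads of 24 nt. The lac and M13 stretches had like plus strand shares of 71.8% and 73.8% of 24 nt. The 21 nt and 22 nt reads did not follow. For 22 nt the shares were 53.0% and 57.7%, with a difference of -4.70 points (-11.0 to 1.72), and for 21 nt they were 60.5% and 51.7%, with a difference of 8.75 points (1.92 to 15.5). This last difference rested on single reads, since it was 5.39 points (-1.90 to 12.6) without the most frequent 21 nt read of each part and 6.85 points (-4.06 to 17.5) among distinct reads.

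The minus strand lead of 24 nt reads on the promoter part rested on 4 reads. They were seen 121, 109, 93 and 82 times and together made up 405 of the 701 minus strand reads, 57.8%. The 4 most frequent plus strand 24 nt reads of the promoter part made up 27.7% of theirs. Leaving out the most frequent 24 nt read of each part gave a difference of -21.0 points (-25.6 to -16.1). With 2 left out it was -13.0 points (-18.0 to -7.87). Without the 4 most frequent of each part the plus strand shares were 63.1% (59.6 to 66.4) on the promoter part and 66.2% (61.8 to 70.4) on the other vector sequence. That difference was -3.10 points (-8.39 to 2.31). The number 4 was chosen after the data were seen. Those left out of the promoter part were all minus strand reads, so the difference was bound to shrink. Among distinct 24 nt reads the promoter part had 129 plus and 106 minus reads, the other vector sequence 94 and 83, and the difference was 1.79 points (-7.85 to 11.4). The strand contrast was thus not seen in the variety of reads.

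**Figure D3:**
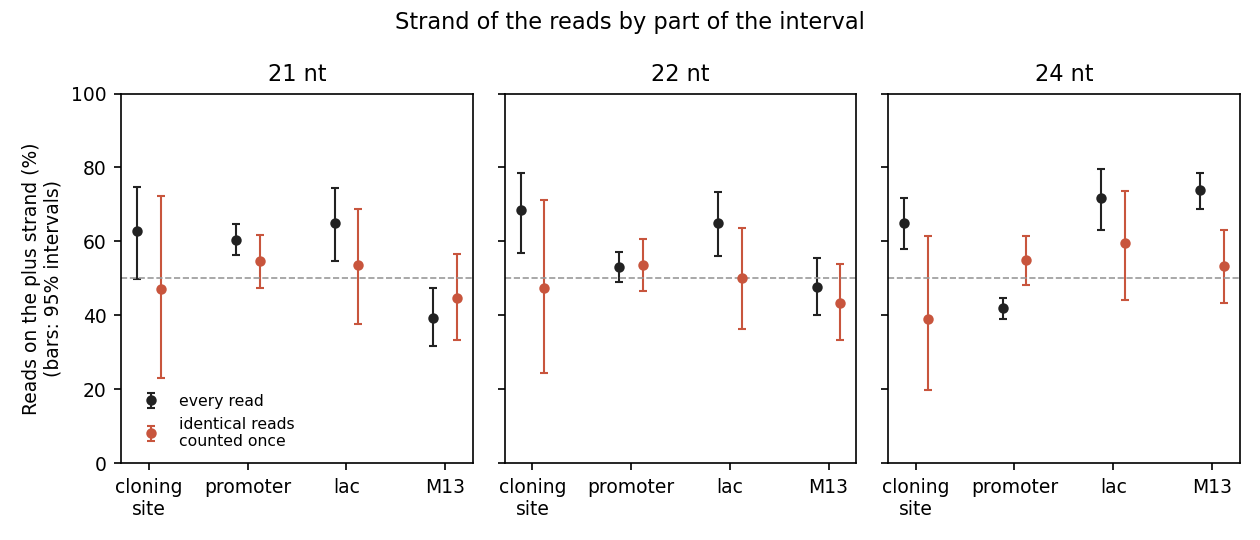
Plus strand share (y axis, percent) of 21, 22 and 24 nt reads in the 4 parts of the 35S interval (x axis), for every read (black) and with identical reads counted once (red), with 95% Clopper-Pearson intervals; the dashed line marks 50%. The 24 nt reads of the promoter part (41.9%) lie below the line and those of the lac and M13 stretches (71.8% and 73.8%) above it, and the intervals of all distinct 24 nt reads overlap the line.

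The most frequent reads were few and sharply placed. The 3 leading 24 nt reads were all on the minus strand of the promoter part, at 7754 to 7777 bp (674 to 697 nt upstream of the start reference, 121 reads, 100 to 145), at 7608 to 7631 bp (109 reads, 89.5 to 131) and at 7598 to 7621 bp (93 reads, 75.1 to 114). The second and the third overlapped by 14 nt, and this overlap had the deepest stack of the interval for 24 nt, 206 minus strand reads over the same base. The first was nearly alone at its ends: no read of another length shared its 5′ end and 13 shared its 3′ end.

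The leading 22 nt read, at 7598 to 7619 bp on the minus strand, was seen 73 times (57.2 to 91.8) and had the same 3′ end as the third 24 nt read. With 7 reads of 21 nt and 13 of 23 nt, 186 reads of 21 to 24 nt ended at that base, the largest stack of 3′ ends. The second 22 nt read lay on the plus strand at 7818 to 7839 bp, with 58 copies, and the third at 7039 to 7060 bp, with 23. The leading 21 nt read, on the plus strand at 7305 to 7325 bp, was seen 88 times (70.6 to 108), 10.1% of its class, and no read of 22, 23 or 24 nt began at its 5′ end. The next 21 nt reads had 25 copies each, at 7040 to 7060 bp on the plus strand and at 8385 to 8405 bp on the minus strand. The last of these was the only member of the 9 that lay in the M13 stretch, and the other members of the 9 lay in the promoter part or on the cloning site side.

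**Figure D4:**
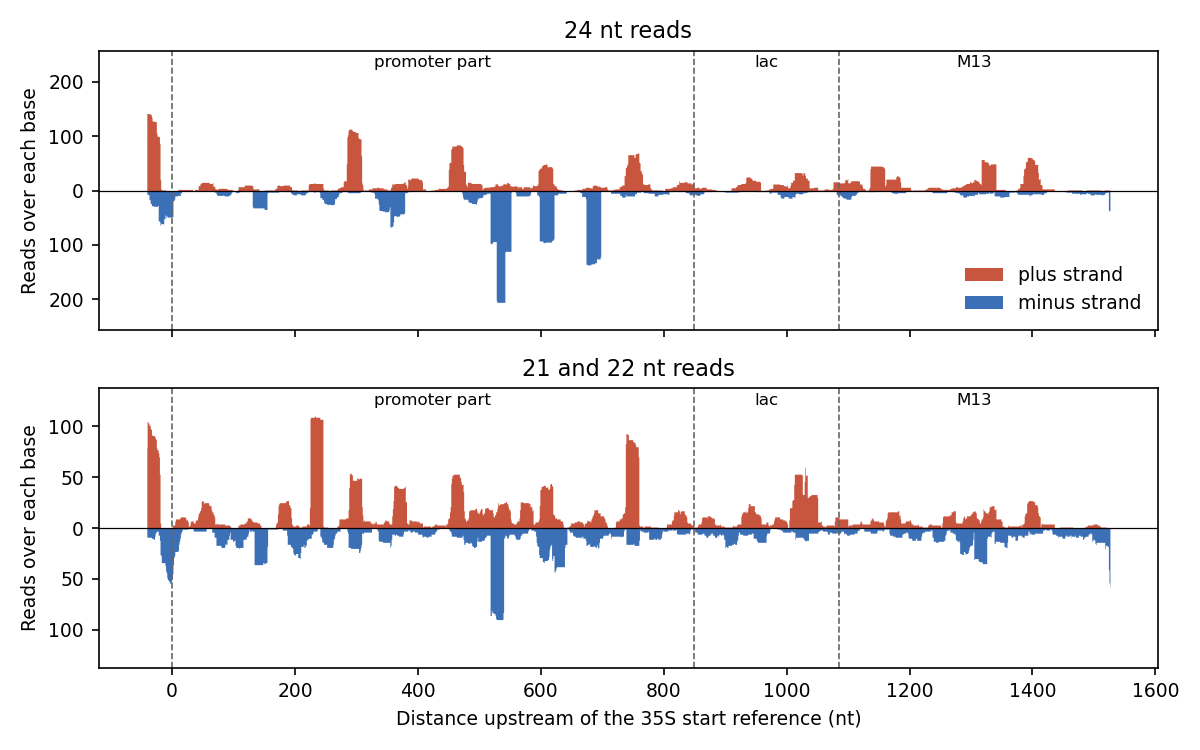
Number of 24 nt reads (top) and of 21 and 22 nt reads (bottom) over each base of the 35S interval (x axis: distance upstream of the 35S start reference in nt; y axis: reads, plus strand above and minus strand below; reads that overlap the ends are included; dashed lines as in the plot by window). The deepest stack of 24 nt reads, 206 on the minus strand, stands where the reads with 109 and 93 copies overlap.

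The cloning site side was the densest stretch and its reads were stacked at 1 place. On the plus strand 121 reads of 21 to 24 nt ended at 7060 bp, inside the BamHI site and 20 nt downstream of the start reference, with 25, 23, 6 and 67 reads of 21, 22, 23 and 24 nt. The 24 nt read of this stack began at 7037 bp, so its first 2 bases were NOSt sequence. The 4 most frequent 24 nt reads of each strand held 91.4% of the plus and 73.9% of the minus strand 24 nt reads there. The plus strand 24 nt reads there were of 9 kinds. With identical reads counted once the cloning site side was still the densest stretch, with 2366 distinct reads per kb against 1040 on the promoter part.

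Reads crossed every junction of the interval. At least 5 nt on either side were required. The junction of the first NOSt and the cloning site side had 77 such reads of 21, 22 and 24 nt (60.8 to 96.2), 66 plus and 11 minus. The start reference was crossed by 41, all 41 on the minus strand, and the HindIII junction by 10 (4.80 to 18.4). The step from the lac to the M13 stretch had 24 and that from the M13 stretch to the second NOSt 15. Of the exact reads of all lengths with midpoints within 10 nt of the ends, 187 lay inside and 36 outside the left end, and 4 inside and 131 outside the right end.

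The lac stretch allowed a look at the same bases in a second line. Of the 234 nt that pROK2 and pCSA110 share, 403 exact reads lay wholly inside in SALK_059379 and 68 in SAIL_232. These numbers were not compared, since they depend on sequencing depth and on the number of inserted copies. By length from 21 to 24 nt there were 94, 121, 36 and 115 reads in SALK_059379 and 23, 18, 4 and 5 in SAIL_232. The 24 nt share was 31.4% (26.7 to 36.4) in SALK_059379, and in SAIL_232 it was 5 of 50 reads (3.33 to 21.8%), 21.4 points apart (9.19 to 28.9), which compares these libraries and not the lines. The strand bias was alike, with 251 of 366 reads (63.6 to 73.3%) and 34 of 50 reads (53.3 to 80.5%) on the plus strand of pROK2. There were 20 distinct reads found in both libraries, 11.4% of the 175 distinct reads in SALK_059379 and 52.6% of the 38 in SAIL_232.

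The 24 nt reads began with A more often than with any other base, the base that AGO4 prefers. A was the first base of 982 of 1872, 52.5% (50.2 to 54.7), against 28.7% at the inner positions of the same reads and 26.2% over both strands of the interval. The shares were 53.3% on the promoter part and 51.0% on the other vector sequence, where the lac stretch had 34.7%, 18.6 points (9.43 to 26.9) below the promoter part but 3.83 points (-11.6 to 17.0) below it among distinct reads. Among distinct reads the share was 35.4% (30.8 to 40.3), still above the base composition, and without the 4 most frequent 24 nt reads of each part it was 40.9% (38.2 to 43.6). The 22 nt reads began with U in 33.0% and C in 30.8%, and the 21 nt reads with A in 35.3% and U in 31.7%. U is the first base that AGO1 prefers.

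The last base was C in most 24 nt reads, 53.1% (50.8 to 55.4), and it was C in 50.5% at 21 nt and 47.2% at 22 nt, against 19.4% to 20.8% C at inner positions. Distinct reads gave 41.0%, 41.8% and 44.0%. The same was true elsewhere on the plasmid, with C in 58.3% of the 24 nt class on the rest of the T-DNA and in 2568 of 4280 on the vector backbone, so this feature was not particular to the interval.

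Length classes shared 3′ ends more often than 5′ ends. Of the 21 nt reads 69.8% (66.6 to 72.8) had the 3′ end of a 22 nt read on the same strand and 31.04% (28.0 to 34.2) the 5′ end. For 22 nt with 24 nt reads the shares were 61.4% and 34.4%, and for 21 nt with 24 nt reads 62.7% and 25.1%. With identical reads counted once the order held, 46.4% and 29.4%, 41.6% and 23.6%, and 40.3% and 25.2%. The rest of the T-DNA showed it too, with 77.5% and 53.9% for 21 nt with 22 nt reads.

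**Figure D5:**
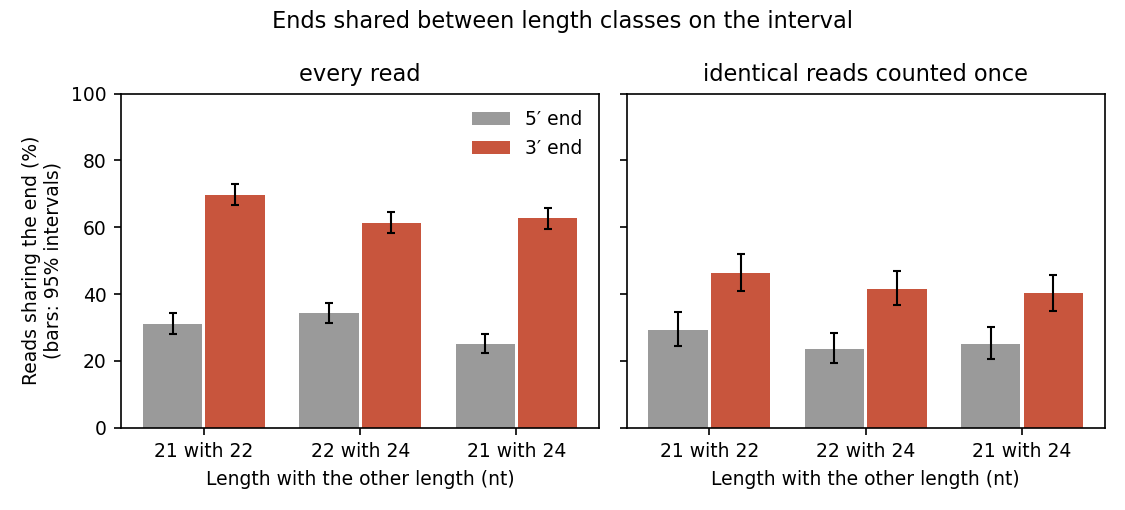
Share of reads on the 35S interval (y axis, percent) whose 5′ end (grey) or 3′ end (red) is also the end of a read of the other length on the same strand (x axis), for every read (left) and with identical reads counted once (right), with 95% Clopper-Pearson intervals. In each pair of lengths the 3′ end is the more often shared, for example 69.8% against 31.04% for 21 with 22 nt.

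Dicer products pair with 2 nt overhangs at both 3′ ends, and the 22 nt reads showed this offset most. When plus and minus strand 22 nt reads were paired at each of 21 offsets, 53 pairs had the 2 nt overhang, 10.9% of the reads, and the other offsets had 20 to 41. For 21 nt this offset had 31 pairs and ranked second, with 33 at the offset that ranked first. For 24 nt it had 49 pairs and ranked 6, against a median of 43.5 and a maximum of 72 at the other offsets. A pair was counted as often as the rarer of its strands was seen. With each paired position counted once, this offset had 37 for 24 nt, just above the 36 of the next offset. For 21 nt it then had 20, below the largest count of 24, and for 22 nt it had 34, again the largest. So for 21 nt and 24 nt the rank of the offset depended on how pairs were counted.

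With every read counted, the interval differed from the rest of the T-DNA in its size classes and little in its total. Its 2776 reads per kb stood against 2955 outside it between the borders, a ratio of 0.940 (0.905 to 0.975). For 24 nt the ratio was 1.31 (1.23 to 1.39), for 21 nt 0.812 (0.748 to 0.880) and for 22 nt 0.669 (0.621 to 0.720). With identical reads counted once the ratio was 1.13 for all lengths (1.06 to 1.20). It was then 1.13 for 24 nt (0.994 to 1.28), 1.26 for 21 nt (1.09 to 1.45) and 1.13 for 22 nt (0.989 to 1.29). The 24 nt share of 46.6% was 13.3 points (11.4 to 15.2) above the 33.2% of the rest. The coding sequence of nptII, which encodes neomycin phosphotransferase, held 1168, 1490 and 1029 reads of 21, 22 and 24 nt, a 24 nt share of 26.3% (24.9 to 27.7). Without nptII the rest had 40.7% (39.1 to 42.3) and the gap was 5.86 points (3.63 to 8.07). The interval was denser than this rest without nptII by 1.35 times (1.29 to 1.41). By length the ratio was then 1.58 for 24 nt (1.47 to 1.69), 1.52 for 21 nt (1.37 to 1.68) and 1.14 for 22 nt (1.05 to 1.25). The lower 21 nt and 22 nt densities of the interval were thus not seen once nptII was left out.

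The neighbouring elements were close to the interval. Between the left border and the first NOSt the reads had a 24 nt share of 44.5% (41.7 to 47.3), the first NOSt 42.6% (37.7 to 47.6) and the second 44.3% (39.7 to 49.1), each with a difference from the interval that includes 0. Reads of the NOSt copies match both of them. The NOSp stretch (36.5%) and the stretch between the second NOSt and nptII (35.4%) were lower by 10.01 (6.40 to 13.5) and 11.2 points (7.21 to 15.0), but among distinct reads these differences were 1.04 (-4.76 to 6.48) and -1.11 points (-7.23 to 4.67). The vector backbone, outside the borders, had 49.4% (48.4 to 50.5) and 1107 reads per kb, 2.51 times fewer (2.42 to 2.60) than the interval. In 24 nt share the interval minus the backbone was -2.86 points (-4.72 to -0.987), and -5.36 points (-8.38 to -2.26) among distinct reads. Among distinct reads the 24 nt shares of the interval and of the rest of the T-DNA were 32.1% and 32.6%, a difference of -0.475 points (-3.74 to 2.83).

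The first base of 24 nt reads differed between the interval and some of the other elements. A began 27.4% of 24 nt reads on the rest of the T-DNA, 25.1 points (22.2 to 27.9) below the interval, 8.55% on nptII and 34.2% on the backbone. On the rest without nptII it was 40.4%, 12.0 points below (8.63 to 15.4). The neighbouring stretch towards the left border was close to the interval, with 48.5% and a difference of 4.01 points (-0.746 to 8.73), and the NOSp stretch had 46.03%. Counted once each, distinct reads gave 35.4% on the interval and 30.1% on the rest of the T-DNA, a difference of 5.33 points with an interval that includes 0 (-0.446 to 11.2), but 20.5% on nptII, 15.0 points below (7.05 to 22.1). The distinct reads of the rest without nptII (33.8%) and of the backbone (34.6%) differed from those of the interval by 1.67 (-4.61 to 7.97) and 0.887 points (-4.36 to 6.32).

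Longer RNA was listed over the interval as well. The RNA-seq table of SALK_059379, also 1 library, listed 125 aligned pieces on pROK2, 43 of them of at least 30 nt. Of the 125, 9 had their midpoint here, 4 of them only 10 nt long. The other 5 (1.62 to 11.7) were 129 or 130 nt long and listed on the plus strand, the opposite of the strand of a 35S transcript. They lay at 7044 to 7173 bp and 7072 to 7201 bp, across the start reference, at 8026 to 8155 bp in the lac stretch, and at 8175 to 8303 bp and 8197 to 8325 bp in the M13 stretch. The sources used here do not say whether this library kept the strand of the RNA.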

How the data were processed

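Small RNA (gel cut at small sizes) and RNA-seq of SALK_059379 and small RNA of SAIL_232 were used, 1 library each, out of 39 samples in the series. The rest were not used here. Adapters were trimmed by the authors, who mapped the reads to the plasmids with Bowtie2 (2.3.0 in the submitters' processing notes) and the Geneious aligner, and remapped the retained reads to TAIR10 to remove off-target reads. The sources used here do not name the aligner behind either table. The authors' methods allow no mismatch, but 85.7% of the reads listed on pROK2 were exact. The deposited tables list each read by strand, start and end, with no normalization and both lanes together. Counts were made here from their entries. SALK_059379 had 25606 small RNA reads on pROK2, and SAIL_232 had 3175 on pCSA110. Total library sizes are not given, so nothing was scaled to them, and densities take no account of how many copies were inserted.

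Reads were written on the plus strand of the plasmid, and ends were read on the strand of the RNA. Windows began at the first base of the interval. Shares have Clopper-Pearson, counts Poisson, differences Newcombe and ratios of densities exact conditional 95% intervals. Those of shares, differences and ratios were tried on simulated reads drawn independently and at even positions. The real reads are stacked, so this trial does not show that the intervals hold for them. An upper limit for 0 is the Clopper-Pearson bound. Distinct reads are those of different start, end or strand. The items named were the windows by range with the 3 densest and 3 sparsest, the 3 most frequent reads of each length and the elements the paper names. Python 3 with pandas, SciPy and matplotlib was used. The members, parts and lists were chosen with earlier results of these data known. The sequences of the virus promoter and the vector are not printed.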

Additional observations from a re-analysis of the deposited data

Results flagged for a closer look

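Reads with differences from the plasmid were left out of the interval by its rule. Apart from the counts given here, they were used only in the alternative setting that kept mismatched reads. There were 549 of them (504 to 597), 11.2% of the 4902 reads with a midpoint in the interval. Of these 356 were 21 to 24 nt long and 44.1% of those were of 24 nt (38.9 to 49.4), close to the 46.6% of the exact reads. On the plus strand lay 53.4% (49.1 to 57.6). A single difference was seen in 526, and in 267 of them, 48.6% of all 549 (44.4 to 52.9), it was the last base at the 3′ end.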

How the results depend on the processing

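Of 64 alternative values 37 kept their direction and stayed inside the 95% interval of the main value, and 22 moved outside it without a change of sign of a called difference. Reads that match pROK2 at more than 1 place, or the host genome, moved nothing outside its interval when left out. Few reads that match the host genome were there to leave out, since the authors had removed off-target reads. With mismatched reads kept the density was 3126 reads per kb and no other result moved. Identical reads counted once gave a density of 975 reads per kb, a 24 nt share of 32.1%, a plus strand share of 52.1%, a promoter to vector ratio of 1.16 and a share of first A of 35.4%. It turned the sign of the 24 nt gap to the rest of the T-DNA, to -0.475 points (-3.74 to 2.83). The sign of the 24 nt strand contrast between promoter part and other vector sequence turned too, to 1.79 points (-7.85 to 11.4). Both intervals include 0, so no opposite difference was seen. Reads wholly inside gave 2637 reads per kb, 52.3% plus, a ratio of 1.75 and a 24 nt gap between the parts of 7.76 points (4.36 to 11.1). Without the most frequent read of each length the values were 2596 reads per kb, 55.95% plus, a ratio of 1.29, 49.2% first A and a strand contrast of -24.2 points.

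With all lengths in the denominator the 24 nt share was 43.0%. A promoter part of 400 nt reversed the density ratio (0.928) and moved the 24 nt gap between the parts to -7.73 points. The strand contrast became 1.25 points, with an interval that includes 0 (-4.30 to 6.76). With everything upstream of the start reference as promoter, which leaves only the cloning site side for comparison, the ratio was 0.274. The strand contrast was then -14.3 points and the 24 nt gap -8.48 points. Of the choices made after the data were seen, leaving out the 4 most frequent 24 nt reads of each part gave a strand contrast of -3.10 points and 40.9% first A, and a rest of the T-DNA without nptII gave a gap of 5.86 points. The causes were not tested. No paired analysis was possible because each line has 1 library. Few reads stood behind the lac stretch of SAIL_232 (50 of 21 to 24 nt), the HindIII junction (10), the last window (19 of 24 nt) and the RNA-seq pieces (5).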
